A study of Glycine max with 12 samples.

Results

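Roots of the soybean (Glycine max) material labelled OX3 were compared with roots of the material labelled W, both given 5 µM MnSO4, the control manganese (Mn) supply of the study. The comparison rests on 6 of the 12 RNA-sequencing libraries of the series, OX3 replicates 2, 3 and 4 and W replicates 2, 3 and 4, chosen by the material and treatment in the sample labels. The other 6 libraries are roots of the same materials at 50 µM MnSO4, numbered 2, 3 and 4 for OX3 and 1, 2 and 3 for W. They share no library with the control comparison, but they entered the filter on low counts and the common estimate of the spread, so they are not fully independent of the choice of genes. The authors' tables head W as WT and OX3 as OX. The sources used here do not state what either name stands for, which gene or allele differs, whether OX3 is a single line, how old the plants were, or whether the libraries of a group came from separate plants. No targeted gene could therefore be checked, and p-values speak of the spread among these libraries alone, which may be technical.

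Manganese is an essential micronutrient that plants take up from soil through the root. It serves the water-splitting complex of photosystem II and the mitochondrial superoxide dismutase, and it becomes toxic in excess, mostly on acid or waterlogged soils. Soybean is an ancient polyploid, so many of its genes exist in similar copies and reads of such copies can be divided between them by the counting. Genes are given by identifier (for example Glyma.16G214500), in which the digits ahead of the G give the chromosome and those behind it follow gene order along it. Of 59048 genes in the RefSeq table used, 0 could be paired with these identifiers, so gene products are not named and neither gene groups nor markers of root or other tissues could be assessed.

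The 6 control libraries held between 16310095 and 19408318 counts, with 34494 to 36862 genes detected by 1 count or more. Of 43517 genes in the count table, 31841 passed the filter on low counts and were tested. Levels are CPM (counts scaled to the library total after TMM normalisation), and fold changes are log2 ratios of OX3 over W.

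W replicate 2 stood apart from the other W controls. On the first principal component of the 6 control libraries, which held 48.5% of the variance, W replicates 3 and 4 lay at -125.1 and -87 and the OX3 libraries between 13.8 and 75.1. W replicate 2 lay at 53.9, inside the OX3 range. OX3 replicate 4 also stood apart from its group, at 95.9 on the second component (24.2% of the variance) with OX3 replicates 2 and 3 at -49.6 and -48.3. Over the tested genes its correlations with those were r = 0.910 and 0.914, as low as those of W replicate 2 with W replicates 3 and 4 (0.911 and 0.910), but W replicate 2 had r = 0.958 with both OX3 replicates 2 and 3. Each control library was also placed on the genes with the smallest p in the fit that left it out (98 to 100 genes for which a position could be given), where 0 is the mean of its own material and 1 that of the other. W replicate 2 had a median position of 0.80 and was nearer to OX3 on 85 of the 100 genes. W replicates 3 and 4 had medians of 0.04 and -0.0066, and OX3 replicates 2, 3 and 4 had 0.13, 0.70 and 0.49. OX3 replicate 3 thus also lay nearer the other material on its genes, and W replicates 3 and 4 lay near their own. The genes differed from library to library, and W replicate 2 was part of the W mean whenever another library was placed. The positions are therefore not directly comparable between libraries. The main counts are given below with and without W replicate 2, and without OX3 replicate 4 as for the other controls.

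**Figure D1:**
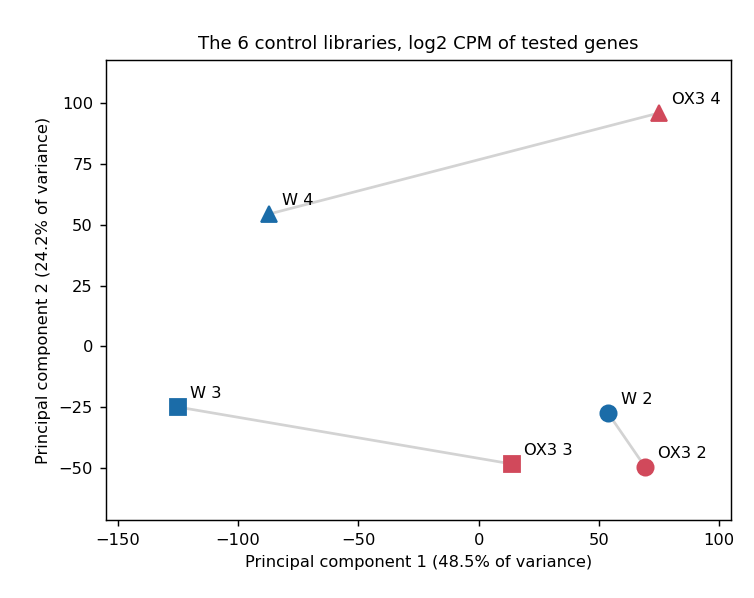
Principal components 1 and 2 of the 6 control libraries (log2 CPM of the tested genes, share of variance on each axis), with W in blue, OX3 in red and grey lines joining libraries of the same number. W replicate 2, at 53.9 on the first component, lies beside OX3 replicate 2 at 69.3, whereas W replicates 3 and 4 lie at -125.1 and -87.

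At 5 µM MnSO4, edgeR's quasi-likelihood test called 4 of the 31841 genes between the materials at an adjusted p under 0.05, which is 0.0126% of the genes tested. Glyma.16G214500 was higher in OX3 (1 gene, 0.00314%), and Glyma.16G161000, Glyma.16G171900 and Glyma.09G125600 were lower (3 genes, 0.00942%). For 3 of the 4 the difference was close to presence against absence, while Glyma.16G171900 was well expressed in both materials. Without W replicate 2 the same 4 genes remained among 100 called (0.31%).

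Glyma.16G214500 had 153, 83 and 75 counts in OX3 replicates 2, 3 and 4, and 6, 5 and 2 counts in W replicates 2, 3 and 4. The mean was 4.72 ± 1.4 CPM in OX3 and 0.252 ± 0.11 CPM in W (SD, n = 3 each). The lowest OX3 library, at 3.82 CPM, was far above the highest W library, at 0.356 CPM. On the log2 scale OX3 exceeded W by 4.19 (SE 0.51; edgeR adjusted p 0.028). Because W had 13 counts in all, the ratio of W to OX3, 0.0522, has a 95% exact counting interval from 0.0275 to 0.0906. W replicate 2 did not stand apart on this gene.

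Glyma.16G161000 gave the opposite picture, with 255, 143 and 150 counts in W and 3, 0 and 7 counts in OX3. The mean was 10.5 ± 0.85 CPM in W and 0.16 ± 0.18 CPM in OX3 (SD, n = 3 each), and the groups did not overlap. The normalised ratio of W to OX3 was 68.4 (95% exact counting interval 36.9 to 143). The log2 difference of OX3 from W was -6.00 (SE 0.7; edgeR adjusted p 0.026). The next tested gene in the numbering, Glyma.16G161100, named here after its values were seen, had 167, 74 and 78 counts in W and 4, 0 and 3 counts in OX3. Its edgeR adjusted p, 0.18, was not past the threshold. The next tested gene on the other side, Glyma.16G160100, also named after its values were seen, was at 57.8 ± 16 CPM in W and 50.6 ± 5.7 CPM in OX3 (SD, n = 3 each), and its groups overlapped.

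Glyma.16G171900 was at 142, 134 and 131 CPM in W replicates 2, 3 and 4 and at 38.7, 49.7 and 40.5 CPM in OX3 replicates 2, 3 and 4. The W values lay close together and all 3 exceeded every OX3 value more than 2-fold. In edgeR the log2 fold change was -1.66 (SE 0.19; adjusted p 0.026). With 7060 counts in W and 2760 in OX3, this is the 1 difference of the 4 that does not rest on a group near 0. The ratio of W to OX3 was 3.19 (95% exact counting interval 3.06 to 3.34).

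Glyma.09G125600 had 35, 50 and 35 counts in W and 0 counts in each OX3 control. It was at 2.47 ± 1 CPM in W (SD, n = 3), at least 49.9-fold above OX3, with a group total of 3 counts standing for 0. Its edgeR adjusted p was 0.026. The counting intervals and the floor cover counting error only.

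**Figure D2:**
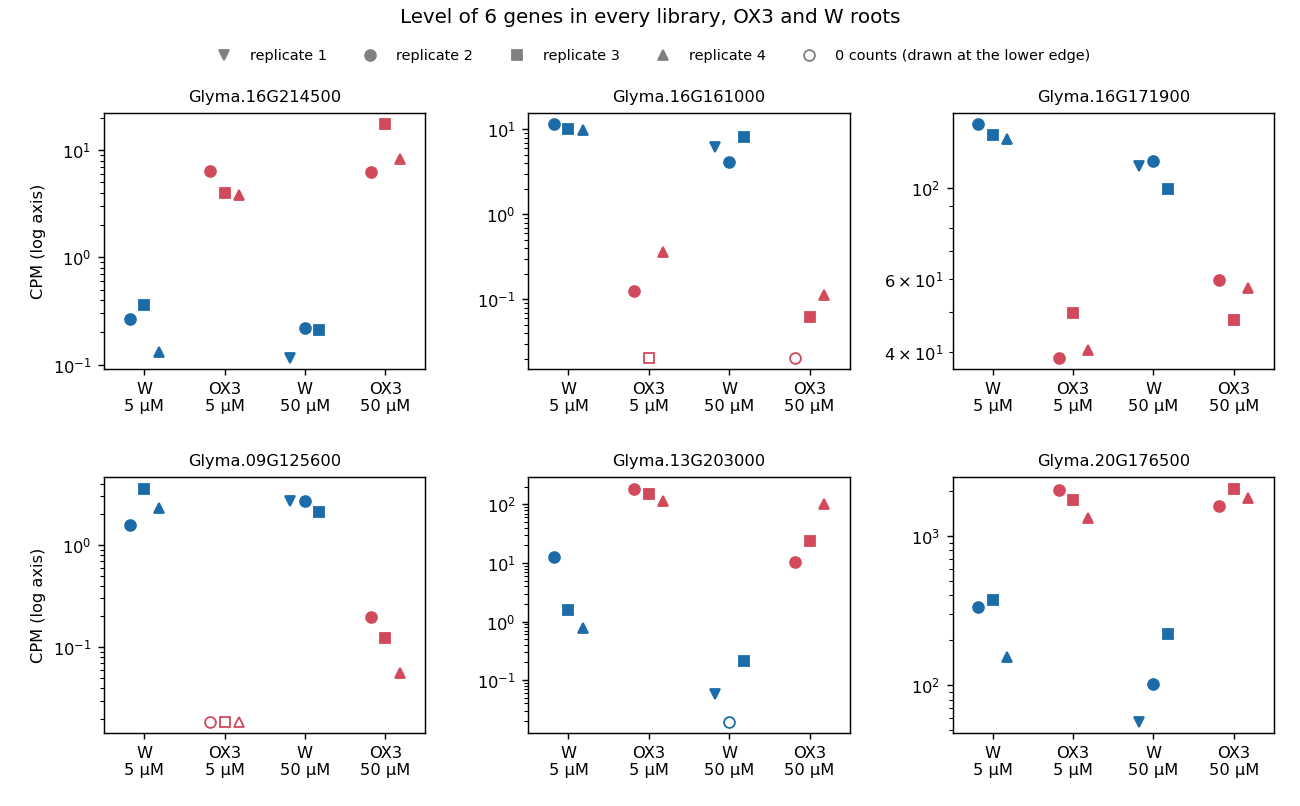
Level of 6 genes in each of the 12 libraries (CPM, log axis), by material and MnSO4 concentration, with W in blue, OX3 in red and the marker shape giving the replicate number. Open markers at the lower edge had 0 counts, as in the 3 OX3 controls for Glyma.09G125600, and in all 6 panels the 3 OX3 controls lie on one side of the 3 W controls.

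In the libraries at 50 µM all 4 genes differed in the same direction and their groups again did not overlap, as for 16.9% of tested genes at that concentration. Glyma.16G214500 had 96, 280 and 149 counts in OX3 and 2, 3 and 3 in W. Glyma.16G161000 had 0, 1 and 2 counts in OX3 and 106, 57 and 116 in W. These 2 were also past the threshold at 50 µM in the fit of all 12 libraries, with adjusted p-values of 0.008 and 0.033 in edgeR's test. In that fit 5 of the 31841 tested genes (0.0157%) passed at 50 µM. In the 6 libraries at 50 µM alone, each of these 2 genes had an edgeR adjusted p of 0.119 and neither passed. Glyma.09G125600 had 3, 2 and 1 counts in OX3 and 47, 37 and 30 in W (adjusted p 0.067 in edgeR's test). Glyma.16G171900 was at 54.8 ± 6.3 CPM in OX3 and 109 ± 8.8 CPM in W (SD, n = 3 each; adjusted p 0.18). Over all tested genes the interaction of material and Mn was past the threshold for 1 (0.00314%), none of these 4. It had adjusted p-values between 0.65 and 0.94 for these 4 genes in edgeR's test, so a difference between the concentrations was not detected for them.

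The calls depended on the fit. In the 6 control libraries alone, with no block, 0 genes passed and the 4 genes had edgeR adjusted p-values from 0.261 to 0.425. Same-numbered OX3 and W controls deviated together from their group means, and with that number as a block these 6 libraries again gave 0 genes, with adjusted p-values from 0.2 to 0.235 for the 4. The blocked fit has 2 residual degrees of freedom, and 5039 genes (16.3%) had an unadjusted p under 0.05 in it, against 2324 in the same libraries without the block. In all 12 libraries the block also gave 0 genes (edgeR adjusted p 0.247 for each of the 4). The number of genes at an unadjusted p under 0.05 was then 3258, compared with 3259 (10.2%) without it. That block joins equal numbers across the 2 concentrations. A block within treatment in the 12 libraries also gave 0 genes, with edgeR adjusted p-values of 0.119 to 0.143 for the 4. It had 5498 genes at an unadjusted p under 0.05. Leaving out W replicate 3, W replicate 4 or OX3 replicate 2, 3 or 4 gave 0 genes each, and the edgeR adjusted p of the 4 genes then lay between 0.0533 and 0.284. DESeq2 called 222 genes (0.703%), including all 4.

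By replicate number, each pair gave the same direction for the 4 genes. On log2 CPM with a prior count of 2, Glyma.16G171900 in OX3 minus W was -1.88, -1.43 and -1.69 for numbers 2, 3 and 4, and Glyma.16G214500 was 4.07, 3.13 and 4.01. Glyma.16G161000 was -5.60, -6.50 and -4.40, and Glyma.09G125600 was -3.88, -5.01 and -4.40. Except for Glyma.16G171900, a group of each gene was at or near 0 counts. These sizes therefore depend on the prior count and do not measure the spread between pairs. Across all tested genes the pairs were less alike. The differences of pairs 3 and 4 had a correlation across genes of r = 0.55, and those of pair 2 had r = 0.13 with pair 3 and 0.038 with pair 4. These are descriptions across 31841 genes, which are not independent replicates. Pair 2 also differed least, with an interquartile range of 0.656 in log2 difference against 0.943 and 1.05 in pairs 3 and 4. In all 3 pairs, 249 genes were over 2-fold higher in OX3 (0.782% of tested genes) and 150 were over 2-fold lower (0.471%). Glyma.06G032500, among the 3 genes with the smallest p in the blocked fit and named for that after its values were seen, was at 37.1, 39.3 and 35 CPM in W and at 7.32, 9.31 and 10.3 CPM in OX3. Its groups lay far apart in every pair. Yet its edgeR adjusted p in the 6 control libraries was 0.2 with the block and 0.26 without it. In all 12 libraries it was 0.42 with the block by number, 0.105 with the block within treatment and 0.3 with no block.

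Other genes not past the threshold also had groups that did not overlap. Glyma.16G174900, the gene next in order of p and named after its values were seen, had 71, 40 and 104 counts in W and 3, 1 and 3 in OX3 (adjusted p 0.063 in edgeR's test). It was past the threshold in 7 of 25 alternative fits, among them the fit without W replicate 2 (adjusted p 0.028). Glyma.16G178900, also named after its values were seen, was at 8.24, 10.3 and 8.22 CPM in W and at 29, 30.5 and 22 CPM in OX3 (adjusted p 0.13 in edgeR's test). At 50 µM it was at 7.95, 7.04 and 12.3 CPM in W and at 30.9, 27.6 and 33.8 CPM in OX3, so all 6 libraries of each material were in separate ranges. Glyma.20G176500, singled out after its values were seen, was among the abundant transcripts, with 2033, 1730 and 1324 CPM in OX3 and 333, 372 and 154 CPM in W. The log2 difference was 2.57 (SE 0.53; edgeR adjusted p 0.37). The W values differed among themselves by more than 2-fold, and W replicate 2 was not nearer to OX3 than W replicate 3.

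Genes with 0 counts in every control library of one material and at least 5 counts in every control library of the other numbered 4, and are named because they are so few. Beside Glyma.09G125600, with 0 counts in OX3, there were 3 with 0 counts in W. Glyma.20G074700 had 76, 39 and 37 counts in OX3, and at 50 µM 44 counts over OX3 against 1 over W. Its adjusted p at 5 µM was 0.24 in edgeR's test. Glyma.16G042100 had 25 counts over the OX3 controls, with 24 over OX3 and 1 over W at 50 µM. Glyma.19G159300 had 29 counts over the OX3 controls, but 6 over each material at 50 µM. Both were below the filter on low counts and were not tested.

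Without W replicate 2, edgeR called 100 genes, of which OX3 was higher for 29 (0.0899%) and lower for 71 (0.22%), all of them over 2-fold. Among those higher in OX3, the absolute log2 fold change ran from 1.39 to 6.98 with a median of 3.08, and among those lower it was at least 1.21 with a median of 2.41. The number rests on W replicate 2 alone being left out: without both libraries numbered 2, 2 genes passed, none of them among the 4, whose edgeR adjusted p-values were then 0.0618 to 0.117. With W replicate 2 in the fit, 91 of the 100 had an unadjusted p under 0.05 (10.2% of all tested genes) and 59 had groups that did not overlap (13.3%). These counts are a description, since the genes were chosen on 5 of the same 6 control libraries. Glyma.13G203000 had the largest fold change of those higher in OX3, by the rule for naming genes. It was at 186, 150 and 115 CPM in OX3 replicates 2, 3 and 4 and at 12.5, 1.57 and 0.783 CPM in W replicates 2, 3 and 4. W replicate 2 was thus well above the other W libraries and well below OX3. Its log2 fold change was 6.98 without W replicate 2 (adjusted p 0.032 in edgeR's test) and 4.90 with it (SE 1.1, adjusted p 0.39). At 50 µM it had 0 to 3 counts in each W library and 10.4, 23.6 and 101 CPM in OX3 replicates 2, 3 and 4, with no overlap. The other genes named by that rule were Glyma.16G214500 and Glyma.16G161000, with log2 fold changes of 4.24 and -5.95 without W replicate 2, and Glyma.09G125600, for which 0 counts in OX3 allow only the bound given above.

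The 100 genes were then read in the 6 libraries at 50 µM, with the limit on independence given above. There, 88 of the 100 had the same direction, against 55.5% of all tested genes. An unadjusted p under 0.05 in the same direction was found for 32 of the 100 and in the opposite direction for 0, against 5.28% of all tested genes in the same direction and 8.76% in either. The median at 50 µM was 0.68 on the log2 scale in the direction seen at 5 µM, against 1.86 at 5 µM with all control libraries. Because the genes were chosen on their differences at 5 µM, these medians cannot show whether the difference changed with the concentration. At 50 µM, 3 of the 100 were past the adjusted threshold, against 0.0157% of all tested genes. Of the 71 genes lower in OX3, 65 kept the direction, and of the 29 higher, 23.

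**Figure D3:**
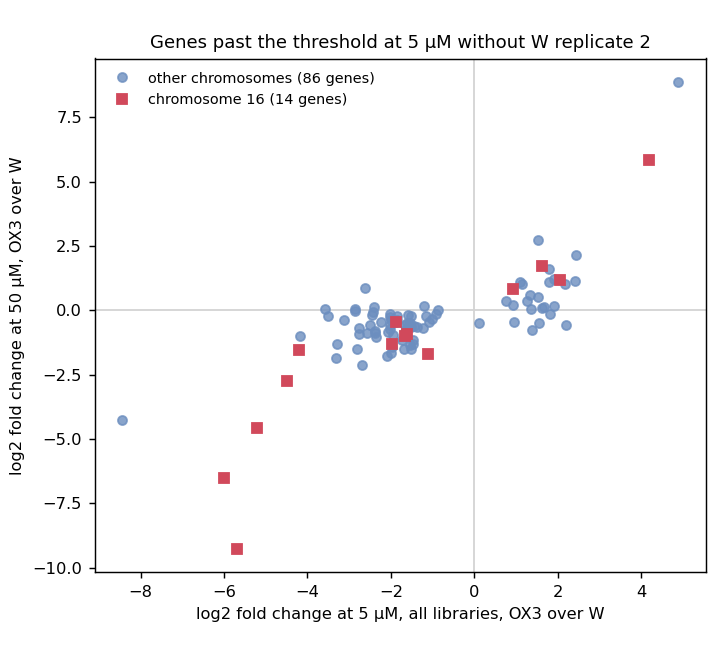
log2 fold change of OX3 over W for the 100 genes past the threshold at 5 µM without W replicate 2, at 5 µM with all control libraries (horizontal axis) and at 50 µM (vertical axis), each point a gene. All 14 genes of chromosome 16 (red squares) have the same sign at both concentrations, as do 74 of the 86 genes of other chromosomes (blue).

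Genes of chromosome 16 were frequent among the smallest p-values. The chromosome held 1159 of the tested genes (3.64%), but 3 of the 4 called genes, 7 of the 10 genes with the smallest p, 9 of the first 20 and 19 of the first 100. With the replicate block in the 6 control libraries the numbers were lower, 3 of the first 10, 8 of the first 20 and 12 of the first 100. It held 14 of the 100 genes called without W replicate 2 and 24 of the 222 called by DESeq2 (10.8%). At an unadjusted p under 0.05 its share was nearer to that of the rest of the genome, 12.1% against 10.2%, and its median log2 fold change was 0.06 against 0.05. In the identifier order of tested genes, 13 of the 14 lay between ranks 885 and 1111, that is from Glyma.16G161000 to Glyma.16G214500 (the split at this place was made after the values were seen). Within that interval the called genes included both directions, and most tested genes were not called. The 2 tested genes on either side of Glyma.16G171900, 4 in all, had unadjusted p-values from 0.069 to 0.71 in edgeR's test. Among them only Glyma.16G170500 had groups without overlap, at 23.3 CPM in W and 17.8 CPM in OX3. Around Glyma.16G161000, Glyma.16G161100 had an unadjusted p of 4.4e-05 in that test, and Glyma.16G159900, Glyma.16G160100 and Glyma.16G161400 had 0.13 to 0.91. Of these, Glyma.16G161100 and Glyma.16G161400 had groups without overlap, the latter at 0.174 CPM in W and 0.748 CPM in OX3. Around Glyma.16G214500, Glyma.16G213700 was at 0.683 CPM in W and 0.0446 CPM in OX3 without overlap (edgeR unadjusted p 0.0016, adjusted p 0.45). Glyma.16G214200, Glyma.16G214800 and Glyma.16G214900 had unadjusted p-values from 0.59 to 0.91 in it. These too were named after their values were seen.

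W replicate 2 behaved differently on these genes. On the 14 genes of chromosome 16 its median position was 0.37 between the other W controls at 0 and OX3 at 1, and it was nearer to W on 8 of them. On the 86 genes elsewhere its median position was 0.82, and it was nearer to W on 7. All 14 genes of chromosome 16 had the same direction at 50 µM, with a median log2 fold change of 1.61 in that direction, against 74 of 86 elsewhere with a median of 0.58. This split by chromosome was made after the values were seen and was not tested.

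**Figure D4:**
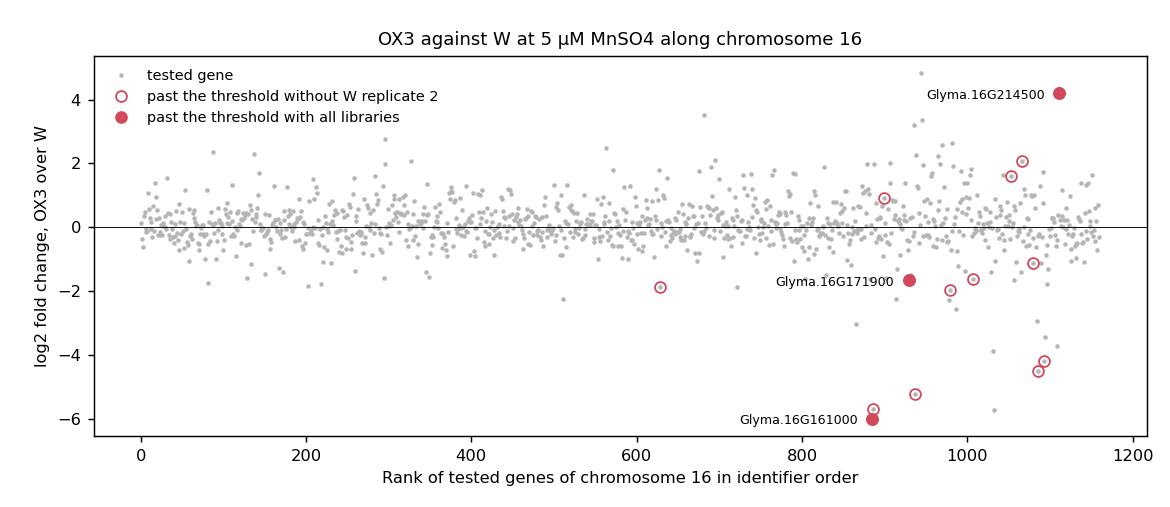
log2 fold change of OX3 over W at 5 µM for the 1159 tested genes of chromosome 16, by their rank in identifier order, each grey point a gene. Filled red points are the 3 genes past the threshold with all libraries and open red circles mark those past it without W replicate 2, of which 13 of 14 lie between ranks 885 and 1111.

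Over all tested genes the median log2 fold change was 0.05, with the middle 50% of genes between -0.29 and 0.41. An unadjusted p under 0.05 was found for 1453 genes higher in OX3 (4.56%) and 1806 lower (5.67%), where 1592 would be expected with no difference and libraries with no other structure. Groups did not overlap for 4229 genes (13.3%). At either concentration, 3 libraries against 3 separate in one direction or the other with a probability of 0.1 where nothing differs. By level, the median log2 fold change was 0.33 for genes under 1 CPM and -0.29 for those at 100 CPM and over, among which 54 genes were higher and 195 lower at that unadjusted p. On log2 FPKM, the authors' values per length and per total count, 2719 were higher and 822 lower with a pseudocount of 1, where no normalisation factor is applied and the median over all genes was 0.15.

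The direction moved with gene length, taken in 4 classes of about equal size. Among the shortest class, up to 1334 bp, 714 were higher in OX3 and 280 lower at an unadjusted p under 0.05. Among the longest class, over 2574 bp, 108 were higher and 831 lower. The median log2 fold change was 0.21 in the shortest class and -0.14 in the longest, a gap of 0.343 that was 0.228 without W replicate 2. The pairs numbered 2, 3 and 4 each showed a decrease from the shortest class (0.24, 0.12 and 0.19) to the longest (-0.25, -0.01 and -0.17). By library, the shortest class was lowest in W replicate 2, at -0.18 relative to the mean of the 6 controls, and highest in OX3 replicate 4, at 0.18. The longest class was highest in W replicate 2 (0.22) and lowest in OX3 replicate 4 (-0.14). At 50 µM the order was the reverse, with medians of -0.12 in the shortest class and 0.16 in the longest, and 197 genes higher against 566 lower among the shortest. The sign of the trend was thus opposite at the 2 concentrations.

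**Figure D5:**
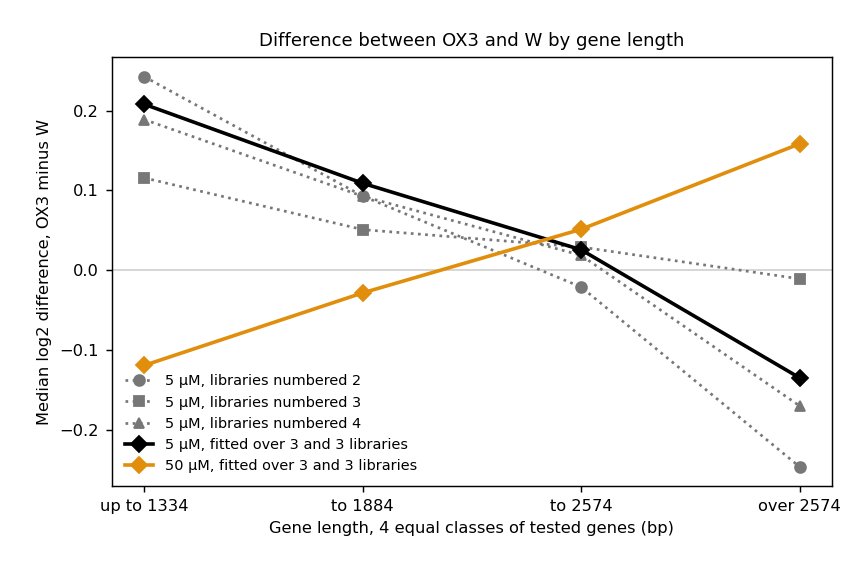
Median log2 difference of OX3 minus W (vertical axis) in 4 classes of the tested genes by length in bp (horizontal axis), for each numbered pair of control libraries (grey) and for the fits at 5 µM (black) and 50 µM (orange). The fitted medians run from 0.21 to -0.14 at 5 µM and from -0.12 to 0.16 at 50 µM.

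The broad set of differences was also read at 50 µM. Of the 3259 genes with an unadjusted p under 0.05 at 5 µM, 61.1% had the same direction at 50 µM, against 55.5% of all tested genes, and 12.3% had it with an unadjusted p under 0.05, against 5.28%. The 2035 genes with an unadjusted p under 0.05 and no overlap at 5 µM (6.39%) had the same direction in 53.1%, and 11% had it with an unadjusted p under 0.05. Within this set the share was 55.4%, 67.5%, 62.3% and 37.8% from the shortest class to the longest (625, 409, 329 and 672 genes). In the longest class it was 34.3% for the 610 genes lower in OX3 and 72.6% for the 62 higher. With the length trend of each library removed, an alternative added after the data were seen, 5 genes were past the threshold (0.0157%), the 4 above and Glyma.16G174900. Without W replicate 2 the number was then 168 (0.521%), of which 99 were among the 100 called with the trend in place. With all libraries and the trend removed, 71.3% of the 2666 genes at an unadjusted p under 0.05 had the same direction at 50 µM, against 58.7% of all tested genes, and 142 of the 168 had it. RNA integrity was assessed before library preparation, per the labels' protocols, but no value per library is in the sources used here, and its part in the length trend was not tested.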

How the data were processed

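For 12 soybean root libraries (Trizol RNA, VAHTS Universal V6 library kit, per the labels' protocols) the authors deposited gene counts and FPKM. Among the tools in the submitters' processing notes, which state no roles, are HISAT2 2.1.0 and HTSeq 0.6.0. Strand use in counting and the handling of reads shared between similar genes are not stated there. The deposited FPKM values equalled the deposited counts scaled by gene length and column total, which gave the gene lengths. Identifiers carry Wm82.a2.v1.

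The test on the counts was that of edgeR 4.0.16 under R 4.3.3 (filterByExpr, TMM factors, 1 quasi-likelihood model of all 12 libraries with a coefficient per group, two-sided F tests, Benjamini-Hochberg adjustment over all genes tested, threshold 0.05). The standard error is the log2 fold change divided by the square root of F. The procedure was also run on simulated independent counts. These held no displaced library, shared replicate deviation or length trend, so they cannot show how the calls depend on those. Alternatives used DESeq2 1.42.0 and limma 3.58.1, other filters and scalings, blocks and left-out libraries. Planned gene lists had no member, since 0 identifiers matched.

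Replicate numbers carry no stated meaning. Deviations from group means correlated across genes by 0.26, 0.45 and 0.27 for controls numbered 2, 3 and 4. Every other combination was below 0 (-0.0014 for OX3 replicate 4 with W replicate 2). Deviations within a group sum to 0, which pushes these below 0 when the same-numbered values are above it. They are therefore not separate evidence. The controls were taken as possible pairs on the same-numbered values, and not on the labels. The genes, libraries and tests were chosen with earlier results of these data known. Named genes were all those past the threshold and, from the fit without W replicate 2, the 2 in each direction with the largest fold change at 2 CPM or more and no overlap. Other genes are said to have been named after their values were seen. A floor of 3 counts over a group stands for 0.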

Additional observations from a re-analysis of the deposited data

How the results depend on the processing

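The number of genes past the threshold, 4, was 222 in DESeq2, 9 and 10 in limma on log2 FPKM with pseudocounts of 1 and 0.1, and 0 in limma-voom, in the 6 control libraries alone and with each replicate block (12 libraries, within treatment, or 6 control libraries). The within-treatment and 6-library blocks also gave 0 with the length trend removed. It ranged from 0 to 100 without one control library, was 2 without both libraries numbered 2 and 0 without both numbered 3 or both numbered 4, and was 168 with the length trend removed and W replicate 2 left out. It stayed at 4 or 5 with other size factors, other filters, voom sample weights or the length trend removed. With voom sample weights, however, the 5 genes included 3 of the 4, and Glyma.16G214500 had an adjusted p of 0.111 in limma's test. The number at an unadjusted p under 0.05, 3259, was 6607 with voom sample weights, 5498 and 5039 with the replicate block within treatment and in the control libraries alone (4933 within treatment with the length trend removed), 1348 without both libraries numbered 4, 6811 without the length trend and W replicate 2, and from 1613 to 6720 without one control library. On log2 FPKM with a pseudocount of 0.1 it was split into 2631 higher and 815 lower. No fold change of the genes followed through the alternatives changed sign, while the 4 calls ended in 15 to 17 of 25 alternatives each. The causes were not tested. The planned medians of gene lists were not run. Low counts limit the size of 3 of the 4 differences.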
